A study of Mus musculus with 4 samples.

Results

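Chromatin remodelling and modifying enzymes change how tightly DNA is packed or what is written on it. The 45 mouse genes described here encode subunits of the SWI/SNF and CHD/NuRD remodellers, histone deacetylases, Polycomb proteins, histone methyltransferases and demethylases, 2 histone acetyltransferases, enzymes that write or remove DNA methylation, and the CTCF-cohesin proteins that shape chromatin loops. They are 45 of 21883 protein-coding genes in the RefSeq GRCm38.p6 table and were chosen by name. A region was counted for a gene when it overlapped the gene span or the 10 kb on either side. By that rule the 45 genes held 189 of the 36224 accessible regions, and no region fell in the windows of more than 1 of them.

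Accessible DNA was mapped by ATAC-seq, in which a transposase cuts open chromatin and adds sequencing adapters. The cells were DN3 thymocytes, CD4 and CD8 double-negative T cell precursors at the stage of T cell receptor beta rearrangement, taken from the thymus of WT mice. They were flow sorted and then split magnetically with an antibody against the adhesion molecule EpCAM, so that the retained cells form the EpCAM+ fraction and the unbound cells the EpCAM- fraction, with 2 libraries each and no further treatment, age or strain stated in the labels. The labels do not say whether the 2 libraries of a fraction came from separate mice, so their spread may be technical.

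The SWI/SNF complexes slide or eject nucleosomes with an ATP-driven motor. NuRD couples such a motor to histone deacetylases, while Polycomb complexes lay down repressive histone marks. In developing thymocytes, remodellers and deacetylases are known to take part in T lineage gene silencing, loss of DNMT3A or TET2 is known to disturb blood progenitors, and CTCF and cohesin organise the antigen receptor loci.

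The deposited lists held 24598 to 29030 peaks per library, called in each library separately. Every one of the 45 genes had a peak in its window in every library, which can be a peak at a neighbouring gene. Of all 21883 protein-coding genes, 15394 had a region of at least 1 library in the same window. The number with a peak in every library was not counted for them. A background of 0.388 and 0.383 fragments was solved for the EpCAM+ libraries, and of 0.290 and 0.286 for the EpCAM- libraries, so that the EpCAM+ mean was 1.34 times the other. The least significant peak listed had a −log10 q of 2.07 and 2.02 against 1.32 and 1.34. Read totals are not known. This gap in background and in the lowest listed value runs along with the fractions, and its part in the comparisons below was not tested. Of the DN3 markers, 4 of 6 had a region called in all 4 libraries within 1 kb of a gene start or end, and Ptcra and Rag1 did not. Of 6 thymic epithelial markers 2 did (Aire and Ly75), while the defining genes Foxn1, Psmb11, Krt5 and Krt8 had no peak there in any library. For B cells it was 1 of 5 (Ebf1), for myeloid cells 1 of 5 (Cebpa) and for erythroid cells 0 of 4. In sorted but bulk cells, fewer cells with an open site and a less open site in each cell cannot be told apart.

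Most of the chromatin genes were open at their start in both fractions. A start region, meaning a region called in all 4 libraries with its summit within 1 kb of a listed transcription start, was present at 37 of the 45 genes (82.2%), against 43.0% of all protein-coding genes. For 11 genes (Smarce1, Arid2, Chd1, Chd3, Chd7, Mbd2, Hdac1, Hdac3, Kdm5a, Kdm6b and Rad21) no start is listed in the promoter table, and the distance to either end of the gene was used. With a listed start, 30 of 34 genes had one, against 44.5% of such genes in all, and without it 7 of 11, against 36.9%. At Arid2, Hdac3 and Kdm5a the same region also lay within 1 kb of the start of a neighbour, Gm38469, Rell2 and Ccdc77 respectively, so it cannot be assigned to 1 of the 2 genes. All 9 SWI/SNF genes, all 4 deacetylase genes and both acetyltransferase genes had a start region. So did 6 of 7 Polycomb genes, 5 of 6 methyltransferase and demethylase genes, 5 of 6 DNA methylation genes, 2 of 3 CTCF-cohesin genes and 4 of 8 CHD/NuRD genes. The counts are descriptions, since the list of genes allows no test of its own.

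Promoter sequences were matched for 34 of the 45 genes, and 250 bases upstream of the outermost listed start are shown for 6 of them, from RefSeq GRCm38.p6, 5′ to 3′ on the strand of the gene. Mbd3 is shown as the start region with the highest rank, Ring1 as the start region with the largest rank difference between the fractions, and Bmi1, Chd4, Mta1 and Tet1 because a listed start had no region called in all 4 libraries. Capitals mark GGGCGG (the GC box of SP and KLF factors), CCGGAA (the ETS core), CCAAT (the NF-Y box) and TGCGCA (the NRF1 core), searched on both strands. Where matches overlap they appear as 1 longer run.
Mbd3 (chr10:80399532-80399781, minus strand): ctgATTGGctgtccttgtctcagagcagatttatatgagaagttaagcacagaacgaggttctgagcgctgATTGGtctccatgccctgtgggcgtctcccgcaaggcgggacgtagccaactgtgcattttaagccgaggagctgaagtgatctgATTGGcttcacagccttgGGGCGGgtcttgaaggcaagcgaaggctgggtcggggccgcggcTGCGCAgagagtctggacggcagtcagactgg
Ring1 (chr17:34024681-34024930, minus strand): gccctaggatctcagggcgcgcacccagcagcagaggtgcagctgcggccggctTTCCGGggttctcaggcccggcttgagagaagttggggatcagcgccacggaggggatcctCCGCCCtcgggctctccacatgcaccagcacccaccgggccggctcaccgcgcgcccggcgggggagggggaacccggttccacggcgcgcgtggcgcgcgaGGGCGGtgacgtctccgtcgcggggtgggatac
Bmi1 (chr2:18676768-18677017, plus strand): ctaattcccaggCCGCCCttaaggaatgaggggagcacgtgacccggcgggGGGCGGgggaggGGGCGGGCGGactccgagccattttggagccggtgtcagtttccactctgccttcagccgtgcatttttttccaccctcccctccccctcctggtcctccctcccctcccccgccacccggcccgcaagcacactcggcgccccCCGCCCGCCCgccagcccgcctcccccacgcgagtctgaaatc
Chd4 (chr6:125095731-125095980, plus strand): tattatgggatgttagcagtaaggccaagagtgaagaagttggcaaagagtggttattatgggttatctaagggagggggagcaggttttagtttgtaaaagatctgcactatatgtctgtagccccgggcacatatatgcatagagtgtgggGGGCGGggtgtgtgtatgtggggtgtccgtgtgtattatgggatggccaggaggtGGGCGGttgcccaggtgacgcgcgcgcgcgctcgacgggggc
Mta1 (chr12:113098028-113098277, plus strand): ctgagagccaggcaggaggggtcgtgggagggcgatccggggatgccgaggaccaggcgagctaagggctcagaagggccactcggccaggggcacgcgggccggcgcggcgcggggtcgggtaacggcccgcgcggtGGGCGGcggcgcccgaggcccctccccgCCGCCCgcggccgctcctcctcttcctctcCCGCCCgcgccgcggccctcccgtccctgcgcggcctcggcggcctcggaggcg
Tet1 (chr10:62887325-62887574, minus strand): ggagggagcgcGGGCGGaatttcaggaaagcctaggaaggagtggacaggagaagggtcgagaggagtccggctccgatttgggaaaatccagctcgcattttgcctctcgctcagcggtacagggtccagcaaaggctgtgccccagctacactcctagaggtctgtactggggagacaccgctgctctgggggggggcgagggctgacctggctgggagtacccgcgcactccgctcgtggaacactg

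The whole of the Mbd3 and Ring1 stretches lay inside a region called in all 4 libraries. None of the Bmi1 or Mta1 stretch lay in any region, 71 bases of the Chd4 stretch lay in a region of 1 library, and 27 bases of the Tet1 stretch in a region of 2 libraries. The GC box was found 6 times at Bmi1, 3 times at Mta1, 2 times at Ring1 and Chd4 and 1 time at Tet1 and Mbd3. Letters of this kind were thus present both where the start was called in all 4 libraries and where it was not. The CCAAT box occurred 3 times in the Mbd3 stretch and in none of the other 5.

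Over the 34 matched promoters, 29 (85.3%) held GGGCGG, against 42.7% of all 17491 promoters of the same length. CCGGAA was in 8 (23.5% against 15.2%) and TGCGCA in 5 (14.7% against 8.30%). CCAAT was in 5 as well, here a lower share (14.7% against 36.5%), and TATAAA, the TATA box, in 1 (2.94% against 12.4%). The E box CACGTG was in 2 (5.88% against 6.65%) and the RUNX core TGTGGT in 2 (5.88% against 12.4%). The median GC content was 69.2% in the chromatin genes and 55.2% in all promoters, and the median number of CpG dinucleotides 24.5 and 10. Matches were not adjusted for base composition, and they describe letters in this window only. At Dnmt3a and Dnmt1 the window is at the outermost listed start, while the start region was at another listed start.

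Start regions of the chromatin genes were also high in the order of pileups. The pileup at a summit, in fragments, was ranked within each library over the 16758 regions called in all 4 libraries with a solved pileup, and is given as a percentile, from 0 for the lowest to 100 for the highest. The 37 start regions, the strongest per gene, had a median mean percentile of 77.0, and 30 of them were above 50. All 8685 shared regions at the start of any gene had a median of 62.4. The other 71 shared regions of the chromatin genes had a median of 49.8, and the 46 of these at no gene's start had 39.7, against 34.2 for all shared regions at no start.

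Mbd3, a methyl-CpG-binding family member of NuRD, had the highest start region, with 192 and 215 summit fragments in the EpCAM+ libraries and 192 and 177 in the EpCAM- libraries (mean percentile 99.4). Smc3, a ring subunit of cohesin, followed with 158, 150, 106 and 99 fragments (96.6; the 4 values are for EpCAM+ 1, EpCAM+ 2, EpCAM- 1 and EpCAM- 2, here and below). Arid1a, the DNA-binding subunit of the BAF form of SWI/SNF, had 161, 141, 109 and 91 fragments (96.3). These 3 regions were above the 94th percentile in each library. Dnmt1, the enzyme that copies DNA methylation after replication, had 126, 109, 113 and 95 (95.1), and Ctcf, the insulator protein, 112, 127, 89 and 101 (94.6). The Dnmt1 region was at a listed start inside the gene and not at the outermost one. Raw fragments were higher in both EpCAM+ libraries at Smc3, Arid1a and Ctcf, in the direction of the background, while none of the 5 was ranked apart between the fractions.

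The low end of the order was held by genes of DNA methylation. Dnmt3b, a de novo DNA methyltransferase, had the lowest start region with 20, 12, 11 and 10 fragments (mean percentile 14.6). Dnmt3a, the other de novo enzyme, had 27, 23, 24 and 17 (39.0). That region (chr12:3891019-3891621) lay at a listed start inside the gene. The outermost listed start of Dnmt3a, at position 3806980, had no region called in all 4 libraries within 1 kb. Tet3 and Tet2, which oxidise methylated cytosine, had 24, 30, 23 and 20 (42.4) and 24, 33, 29 and 22 (47.6). The fifth lowest was Arid1b, with 26, 33, 26 and 26 (49.4). Tet1 had no start region at all in the sense used here, so that of the 6 genes of the DNA methylation group only Dnmt1 had a start region above the 50th percentile.

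**Figure D1:**
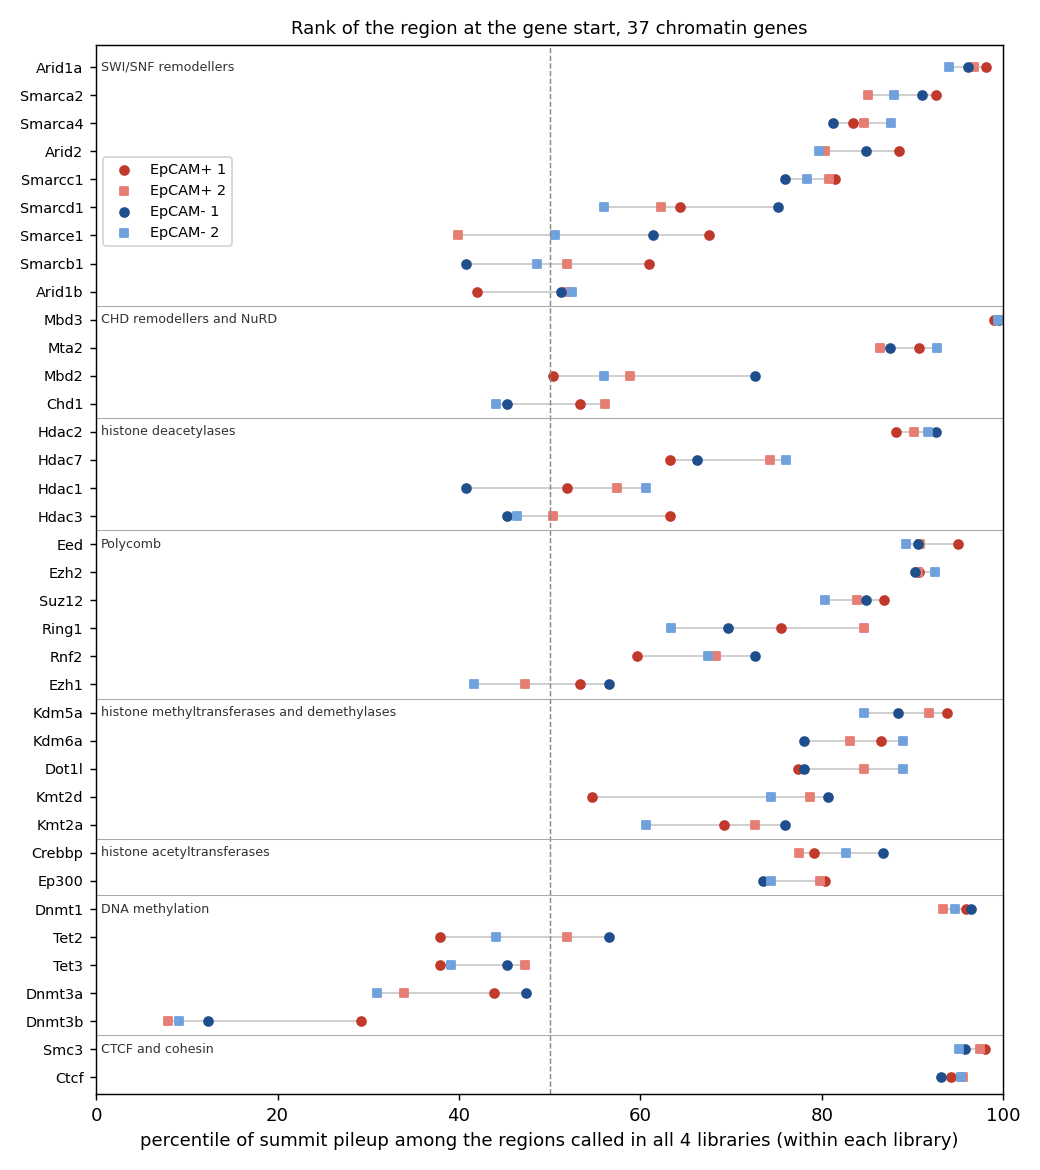
Percentile of the summit pileup within each library (horizontal axis) for the start region of each of the 37 chromatin genes that have one, by functional group. Each point is 1 library (red EpCAM+, blue EpCAM-, circles replicate 1, squares replicate 2), the grey line spans the 4 libraries and the dashed line marks 50. Mbd3, Smc3, Arid1a, Dnmt1 and Ctcf sit at the right edge and Dnmt3b lies lowest, with 1 of its 4 libraries at 29.2 and the others below 13.

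Closely related genes were set side by side. Of 9 pairs of related members, picked after their values had been seen, 5 (55.6%) had ranges over the 4 libraries that did not overlap, against 472 (70.9%) of the 666 pairs that the 37 start regions can form. Arid1a, at 94.1 to 98.1, lay above Arid1b, its alternative in the BAF complex, at 42.0 to 52.5. Mbd3 (99.0 to 99.6) lay above Mbd2 (50.3 to 72.6), which takes its place in a separate NuRD complex and binds methylated DNA. Hdac2 (88.2 to 92.5) lay above Hdac1 (40.8 to 60.6), the partner deacetylase of the same complexes. Ezh2, the main methyltransferase of Polycomb complex PRC2, ranked at 90.3 to 92.4 and its relative Ezh1 at 41.7 to 56.6. Dnmt3a, at its inner listed start (31.0 to 47.4), lay above Dnmt3b (7.93 to 29.2). The ranges overlapped for the SWI/SNF motors Smarca2 (85.1 to 92.6) and Smarca4 (81.3 to 87.6), for the methyltransferases Kmt2d and Kmt2a, for the acetyltransferases Crebbp and Ep300, and for Tet2 and Tet3. The order of a pair concerns the height of 1 accessible region and is no measure of transcript amount.

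The PRC2 genes Eed, Suz12 and Ezh2 were alike, while Ezh1 was not. Eed and Suz12 encode the subunits that the PRC2 enzyme needs for its activity. Eed, Suz12 and Ezh2 each had a single region, at the start and called in all 4 libraries. Eed had 119, 95, 77 and 71 fragments, Ezh2 92, 94, 76 and 83, and Suz12 78, 72, 61 and 51. All 3 ranked above the 80th percentile in every library. Ezh1 had 4 regions, 2 of them called in all 4 libraries, and its start region ranked at 41.7 to 56.6. Ep300, Hdac2 and Tet2 were the other 3 members with a single region.

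At 8 genes no start region was called in all 4 libraries, and 4 of them were in the CHD/NuRD group. At Chd4, the motor subunit of NuRD, the peak at the start was called in EpCAM+ 2 alone with 17 fragments, and the nearest region called in all 4 libraries had its summit 1102 bp downstream, just beyond the 1 kb limit, with 19, 21, 15 and 15 fragments. At Mta1, a NuRD scaffold protein, the nearest peak in any library lay 3345 bp from the start, in EpCAM+ 1 alone with 16 fragments. Both shared regions in the Mta1 window were at the start of another gene: 1 at Crip2, 42001 bp away with 175, 186, 113 and 98 fragments, and 1 at Gm30599. At Bmi1, a PRC1 Polycomb subunit, the start was called in EpCAM+ 1 alone with 18 fragments, and the only region called in all 4 libraries was 4519 bp upstream at the start of Commd3, with 30, 32, 25 and 19.

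For Chd3, Chd7, Kdm6b and Rad21 the strand is not listed, and the distances are to the nearer end of the gene. The strongest Kdm6b region, in the gene of a demethylase that removes the Polycomb mark from histone H3, had 113, 126, 82 and 93 fragments 1580 bp from an end. At Rad21, the cleavable subunit of cohesin, the nearest shared region was 1723 bp from an end with 33, 36, 18 and 23 fragments, within 1 kb of the start of Gm52217. The distances were 2452 bp at Chd3, a NuRD motor like Chd4, and 3745 bp at Chd7, a remodeller found at enhancers. With a limit of 500 bp instead of 1 kb, 32 genes had a start region.

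At Tet1, an oxidase like Tet2 and Tet3, the start was called in some of the libraries. An EpCAM-positive-only region (chr10:62886314-62886835) had 11 and 10 fragments 727 bp inside the gene. A second region with its summit 153 bp from the start was called in EpCAM+ 1 with 18 and in EpCAM- 2 with 9 fragments, and its EpCAM- peak lay 74 bp from the EpCAM-positive-only region. The nearest region called in all 4 libraries was 21903 bp into the gene, with 19, 25, 16 and 19 fragments.

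Over whole windows, 109 of the 189 regions (57.7%) were called in all 4 libraries, against 46.3% of all regions and 50.0% of the 28571 regions in the same windows of protein-coding genes. A further 40 were called in 1 library, a pattern held by 29.8% of all regions, and 26 in 3 libraries or in 1 library of each fraction. The number of peaks overlapping the windows was 153 and 158 in the EpCAM+ and 150 and 138 in the EpCAM- libraries, 155.5 ± 3.54 against 144 ± 8.49 (SD, n = 2 libraries each; exact permutation test, two-sided, p = 0.333, as low as this design can go). Per 1000 peaks of each list it was 5.88 and 5.44 in EpCAM+ and 6.10 and 5.32 in EpCAM- libraries, values that overlapped between the fractions (difference -0.0503, same test, exact p = 1).

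**Figure D2:**
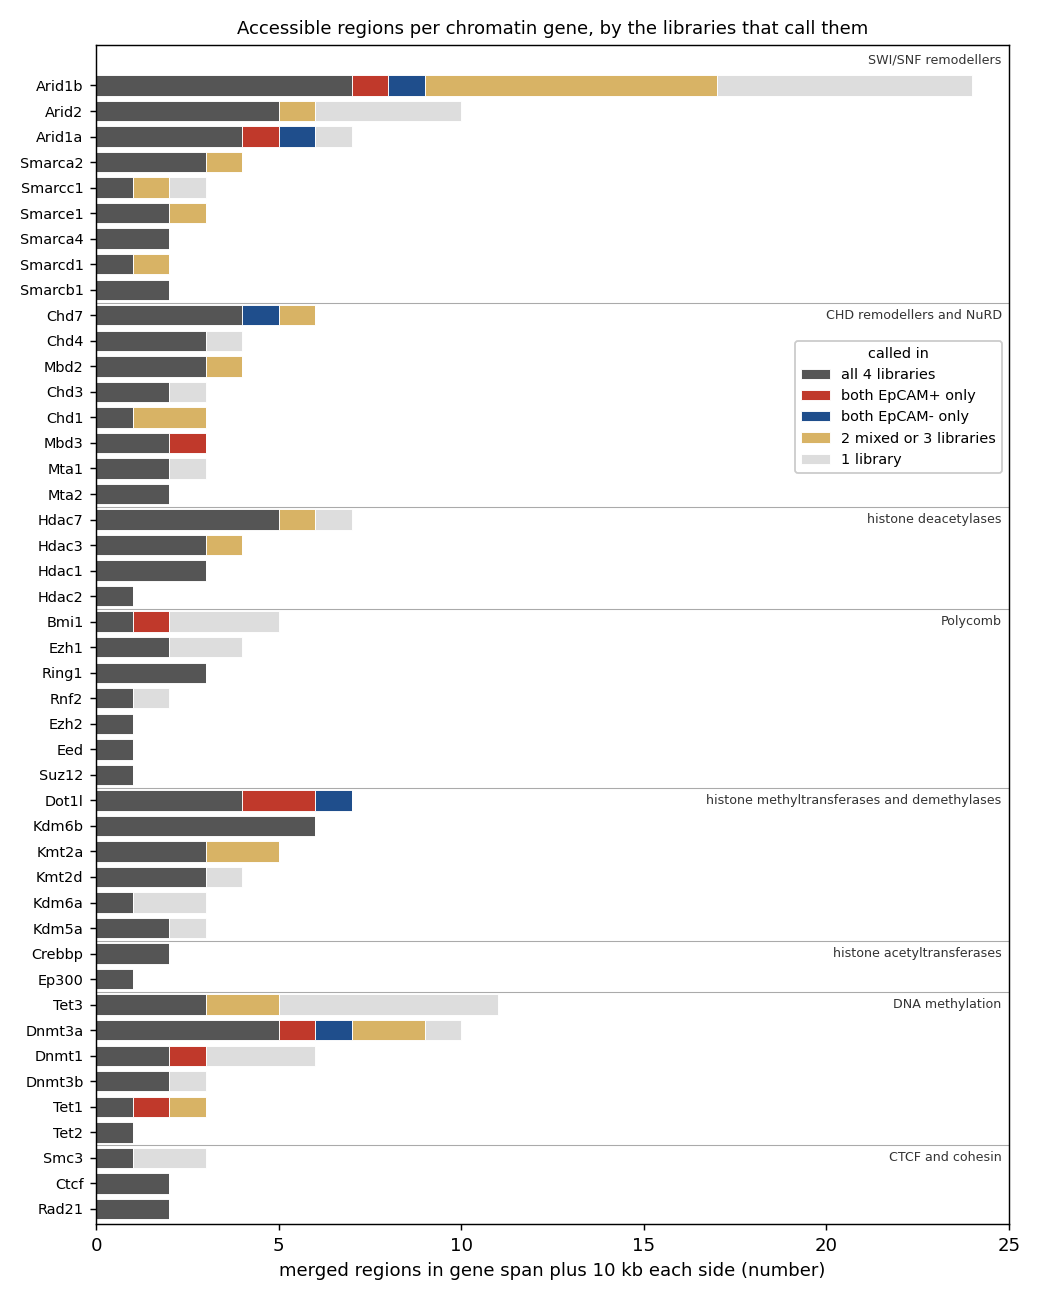
Number of merged accessible regions (horizontal axis) in the window of each of the 45 chromatin genes, by functional group and by the libraries that call them. Every gene has a dark part for regions called in all 4 libraries, Arid1b has the longest bar, and red and blue parts for 1 fraction alone occur at 9 genes.

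The number of regions differed between the genes of a group. Arid1b, which spans 353360 bp, had the most, 24 regions. All 4 libraries called 7 of them, 15 were called in 1 library, in 3 or in a mix, and 1 in each fraction alone. Its strongest region was not at the start but 194948 bp into the gene (chr17:5189659-5190559), with 66, 70, 75 and 62 fragments. Dnmt3a showed a like pattern: its 5 shared regions included 1 at chr12:3870904-3871782 with 92, 107, 97 and 105 fragments, 20587 bp before the listed start that had 27, 23, 24 and 17. In both genes the strongest region thus lay inside the gene span and away from the listed starts.

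Kdm6b had 6 regions and all were called in all 4 libraries, the strongest being that 1580 bp from 1 of the 2 gene ends. The region at 2563 bp from an end was also at the starts of Cyb5d1, Naa38 and Tmem88. Hdac7, a class IIa deacetylase of thymocytes, had 5 shared regions of 7, led by 1 located 5059 bp before a start with 76, 77, 55 and 51 fragments. Chd7 had 4 shared regions, the highest by mean percentile with 31, 38, 29 and 39 fragments 57247 bp from an end. In the Polycomb group Ring1, a ubiquitin ligase of PRC1, had 3 shared regions, of which 2 were at neighbours' starts (H2-Ke6, and Slc39a7 with Rxrb). Crebbp, an acetyltransferase, had 2 shared regions, at its start with 61, 59, 66 and 55 fragments and at Trap1 with 77, 69, 89 and 63. Ctcf and Rad21 had 2 each, and the second at Ctcf, at the start of Carmil2, was about as high as the first, with 99, 121, 88 and 103. In all, 28 of the 109 shared regions lay within 1 kb of the start of another gene and cannot be assigned to the chromatin gene alone.

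Regions called in 1 fraction alone were few: 9 of 189 (4.76%) were EpCAM-positive-only, against 4.40% of all regions and 4.41% of those in protein-coding windows, and 5 (2.65%) were EpCAM-negative-only, against 1.72% and 1.48%. The first share is near the background, and the second, which rests on 5 regions only, is above it. The 4 patterns with 1 call in each fraction, which also rest on 2 libraries, held 5, 1, 5 and 1 regions (2.65% for EpCAM+ 1 with EpCAM- 1 and for EpCAM+ 2 with EpCAM- 1, and 0.529% for EpCAM- 2 with either EpCAM+ library), against 1.30%, 1.31%, 1.79% and 2.55% of all regions. The 14 one-fraction regions lay at 9 genes, 10 of them inside the gene span. Their summits held 8 to 24 fragments, where the median over all peaks of a list was 20, 19, 18 and 17. The shared regions had medians of 31, 32, 25 and 25, but calling in all 4 libraries itself selects for higher summits. At a start, 3 of the 45 genes (Arid1b, Dnmt3a and Tet1) had an EpCAM-positive-only region, against 1.78% of all protein-coding genes, and 0 had an EpCAM-negative-only one, against 0.233%. The Dnmt3a and Tet1 regions kept their pattern in 2 of the 4 other settings described below, and that of Arid1b in all 4. With 1 library left out, so that a single call sufficed in its fraction, the EpCAM-positive-only count was 27 without EpCAM+ 1, 22 without EpCAM+ 2, 17 without EpCAM- 1 and 12 without EpCAM- 2, and the EpCAM-negative-only count 7, 7, 11 and 11. The shares of the first kind were then 15.1%, 12.6%, 9.24% and 6.52%, against 16.7%, 13.3%, 8.18% and 8.61% of all regions. The shares of the second kind were 3.91%, 4.02%, 5.98% and 5.98%, against 3.44%, 4.69%, 9.37% and 7.50%.

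Among the SWI/SNF genes, Arid1b had an EpCAM-positive-only region (chr17:4994992-4995321) with 20 and 21 fragments, its summit 109 bp after the listed start and 406 bp from the nearest EpCAM- peak. That peak belonged to the shared start region described above, so the start of Arid1b was called in both fractions. The EpCAM-negative-only region of Arid1b (chr17:5270845-5271131) had 10 and 8 fragments, 275879 bp into the gene. Arid1a had 1 region of each kind side by side: the EpCAM-positive-only region (chr4:133707161-133707586) with 9 and 9 fragments and the EpCAM-negative-only region (chr4:133706676-133707050) with 8 and 9 fragments were 111 bp apart. Merged more widely, the Arid1a pair would be 1 site called in all 4 libraries.

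In the DNA methylation group, Dnmt3a had an EpCAM-positive-only region 710 bp after a listed start (chr12:3807611-3808094) with 15 and 12 fragments, at another start than the one with the shared region. A region with its summit 728 bp before the outermost listed start (chr12:3806118-3806395) was called in EpCAM+ 2 with 20 and in EpCAM- 1 with 15 fragments. So 1 library of each fraction had a peak within 1 kb upstream of the outermost start. Dnmt3a also had an EpCAM-negative-only region (chr12:3829235-3829611) with 10 and 15. Dnmt1 had an EpCAM-positive-only region 5254 bp outside the gene (chr9:20901739-20901990) with 16 and 12. With the Tet1 region given above, the group had 3 regions of the first kind and 1 of the second among its 34.

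Dot1l, the methyltransferase of the histone H3 globular domain, was the only member with 3 one-fraction regions. The EpCAM-positive-only ones had 24 and 19 fragments 3245 bp before the start (chr10:80751871-80752188) and 10 and 12 fragments 19783 bp after it (chr10:80774801-80775045). The EpCAM-negative-only one (chr10:80791734-80792065) had 13 and 15 fragments and lay 119 bp from an EpCAM+ peak. The start of Dot1l itself was called in all 4 libraries, with 58, 74, 49 and 70 fragments.

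The remaining cases were 1 region per gene. Chd7 had an EpCAM-negative-only region inside the gene (chr4:8803213-8803546) with 15 and 15 fragments, 3382 bp from any EpCAM+ peak. Bmi1 had an EpCAM-positive-only region 7594 bp beyond the gene (chr2:18694049-18694294) with 17 and 17. The Mbd3 window had an EpCAM-positive-only region (chr10:80406620-80407101) with 14 and 14, at the start of Uqcr11. The deacetylase, acetyltransferase and CTCF-cohesin genes had none. Under each of 4 other thresholds or overlap rules, 4 of the 9 EpCAM-positive-only regions (at Arid1a, Arid1b, Bmi1 and the inner one of Dot1l) and 3 of the 5 EpCAM-negative-only regions (at Arid1a, Chd7 and Dnmt3a) kept their pattern. With lists trimmed to equal length the counts were 5 and 6.

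**Figure D3:**
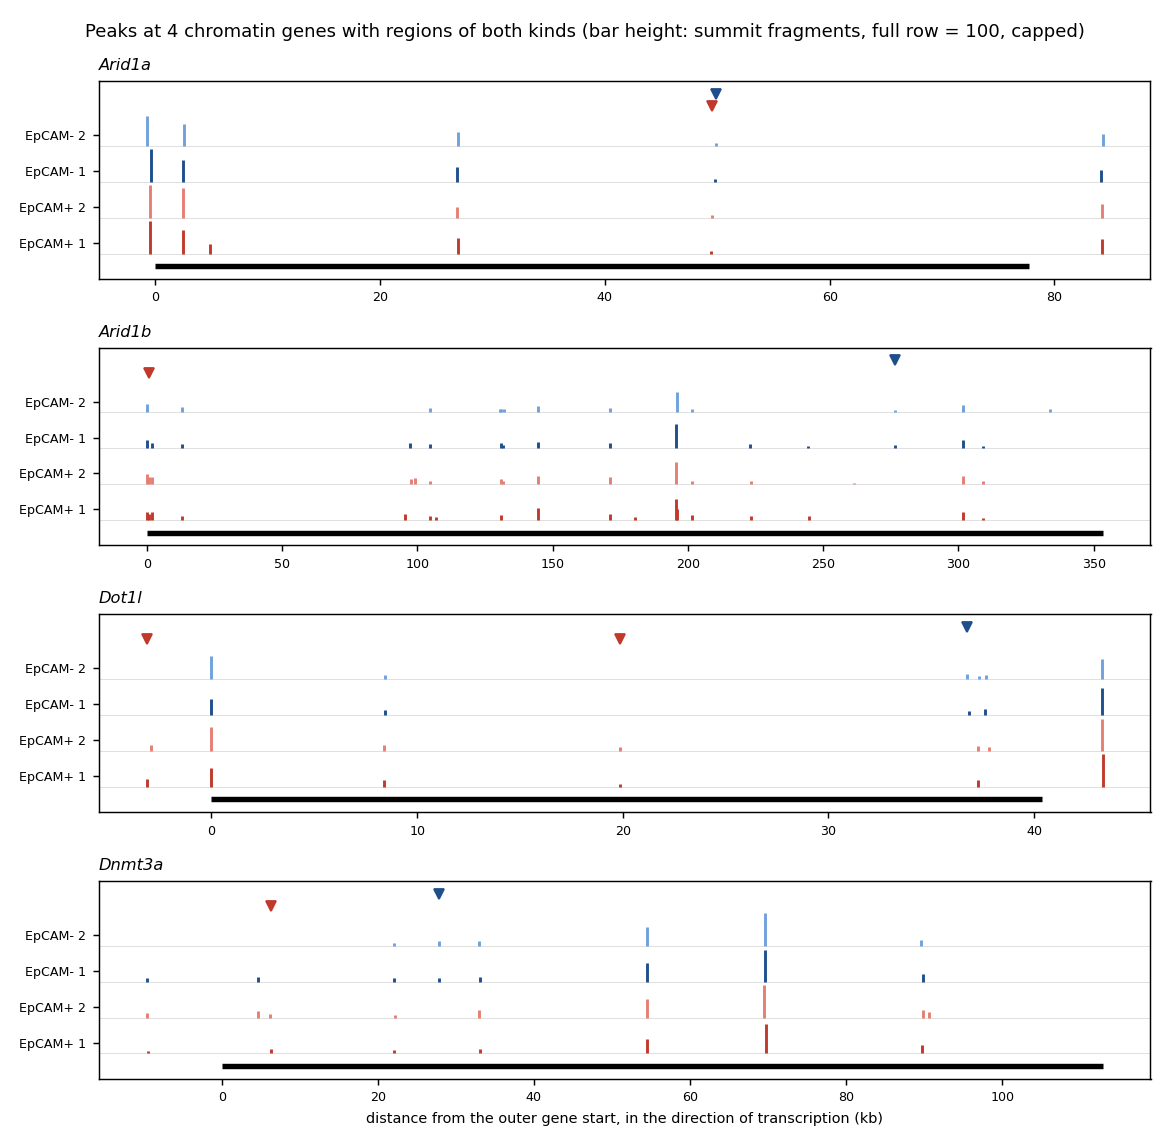
Peaks at the 4 chromatin genes with regions of both kinds, 1 row per library, against distance from the outer gene start in the direction of transcription (kb). Bar height is the number of summit fragments, capped at a full row of 100, the black bar is the gene, and red and blue triangles mark EpCAM-positive-only and EpCAM-negative-only regions. The 2 triangles of Arid1a lie next to each other, and the tall bars stand in all 4 rows.

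Among the 109 shared regions, few were ranked apart between the fractions. A region was taken as ranked apart when both libraries of 1 fraction lay at least 5 percentile points above both of the other. This held for 8 regions higher in EpCAM+, against a background of 9.30% of all shared regions, and for 5 higher in EpCAM-, against 9.79%. The 8 are 7.34% and the 5 are 4.59% of the 109, both below the background share. Leaving out 1 library made the rule easier to meet and gave 13 to 24 regions higher in EpCAM+ and 9 to 16 higher in EpCAM-, each of the 4 libraries moving both counts by over 1.5 times. The share higher in EpCAM+ was then 13.5% without EpCAM+ 1, 16.2% without EpCAM+ 2, 21.4% without EpCAM- 1 and 11.2% without EpCAM- 2, against 17.4%, 19.0%, 20.2% and 18.2% of all shared regions, so it stood above the background without EpCAM- 1. The share higher in EpCAM- was 10.8%, 14.4%, 8.04% and 12.9%, against 17.7%, 18.4%, 19.5% and 18.0%. With a limit of 0 points the shares were 22.9% and 16.5%, against 22.0% and 21.6%.

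The summit pileups of the shared regions were also tested with limma on the log2(fragments + 1) scale, with each library centred on its median and p-values adjusted by Benjamini-Hochberg over all 16758 regions, an analysis chosen after the data had been seen. At an adjusted p under 0.05 limma called 0 of the 109 regions higher in EpCAM+, against 0.0239% of all shared regions, and 0 higher in EpCAM-, against 0.0716%. At an unadjusted p under 0.05 it was 4 regions (3.67%) higher in EpCAM+, against 4.96%, and 6 (5.50%) higher in EpCAM-, against 8.00%. The lowest adjusted p of limma, 0.108, was that of the Smarca2 region described below, with a log2 difference of -1.08 (SE 0.291). Leaving out EpCAM- 1 left a single library in that fraction. The log2 difference was then -0.981 at the Hdac7 region and -1.34 at the first Mbd2 region named below, both picked after that fit had been seen. With all 4 libraries these differences were -0.749 and -0.901. EpCAM- 2, the library left, had more fragments than EpCAM- 1 at both (68 against 49 and 32 against 17). Larger differences without EpCAM- 1 follow from that and add no evidence. The rank differences that follow are therefore given as values.

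Higher in the EpCAM+ fraction, the largest difference was at a region inside Kdm6b (chr11:69410501-69411263) with 63, 54, 35 and 29 fragments, a mean percentile of 77.3 against 61.3. Ranked by the deposited fold enrichment, the same difference was 0.161 points in place of 16.0. The next was in the Mta1 window at Gm30599 (43, 43, 23 and 27; 15.1 points), which fell to 0.579 by fold. Rad21 (33, 36, 18 and 23; 14.7 points) and Arid2, a subunit of the PBAF form of SWI/SNF (15, 21, 10 and 10; 14.0 points), kept their direction with 14.7 and 27.7 points by fold. Single libraries weighed on these sizes: without EpCAM- 1 the difference was 10.0 points at Mta1 and 7.84 at Rad21, and at Arid2 it was 8.13 without EpCAM+ 2 and 21.5 without EpCAM+ 1.

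Ring1 had the largest difference of any start region. Its summit, 161 bp from the start (chr17:34024209-34025100), held 55 and 74 fragments in the EpCAM+ and 39 and 33 in the EpCAM- libraries. That is the direction of the background, and limma gave the region an adjusted p of 0.319. Its percentile was 75.5 and 84.7 against 69.7 and 63.4, a difference of 13.6 points, and 15.1 by fold. Without EpCAM+ 2 it was 8.73 points. The start regions of Chd1, a remodeller bound to active genes, and of Ep300 were also ranked higher in EpCAM+, by 10.0 points (33, 36, 23 and 22) and 6.12 points (63, 63, 43 and 43). The last was in the Kmt2a window at Tmem25 and Ttc36, with 17, 14, 8 and 8. So 3 of the 8 regions higher in EpCAM+ were at a start of the chromatin gene itself.

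Higher in the EpCAM- fraction, the 2 largest differences were both at Mbd2, 1 on either side of the gene, 4780 and 4641 bp outside it. The first had 13, 18, 17 and 32 fragments and mean percentiles of 17.1 against 46.4, a difference of -29.4 points. The second had 13, 24, 26 and 24 and mean percentiles of 23.9 against 49.9. At both, the raw fragments of 1 EpCAM+ library reached those of an EpCAM- library. Without EpCAM- 2 the first difference was -14.5 and without EpCAM- 1 it was -44.1, and without EpCAM+ 1 the second was -13.5. The Mbd2 start region itself, with 31, 38, 42 and 28 fragments, was not ranked apart.

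A region inside Smarca2 (chr19:26646156-26646601), 41198 bp after the start, had 9 and 8 fragments in EpCAM+ and 15 and 15 in EpCAM- libraries, which was the opposite of the direction of the background. Its percentiles were 3.31 and 1.38 against 25.1 and 25.1, a difference of -22.7 points, -26.0 to -22.6 with any 1 library left out, -39.5 by fold enrichment and -33.0 by −log10 q. The Hdac7 region 6218 bp after a start (chr15:97825059-97825587) had 35, 52, 49 and 68 fragments and a difference of -18.8 points, with raw fragments that overlapped between the fractions. Without EpCAM+ 1 that difference was -9.97. Dnmt3a had a region (chr12:3855593-3856381) with 45, 56, 59 and 58, a difference of -12.5 points. At Arid1a a region 24115 bp into the gene differed by -13.7 points (49, 32, 44 and 43), but EpCAM+ 1 was close to both EpCAM- libraries and the region was not ranked apart. Its difference was -3.34 without EpCAM+ 2 and -22.9 without EpCAM+ 1. None of the 5 regions ranked higher in EpCAM- was at a gene start.

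**Figure D4:**
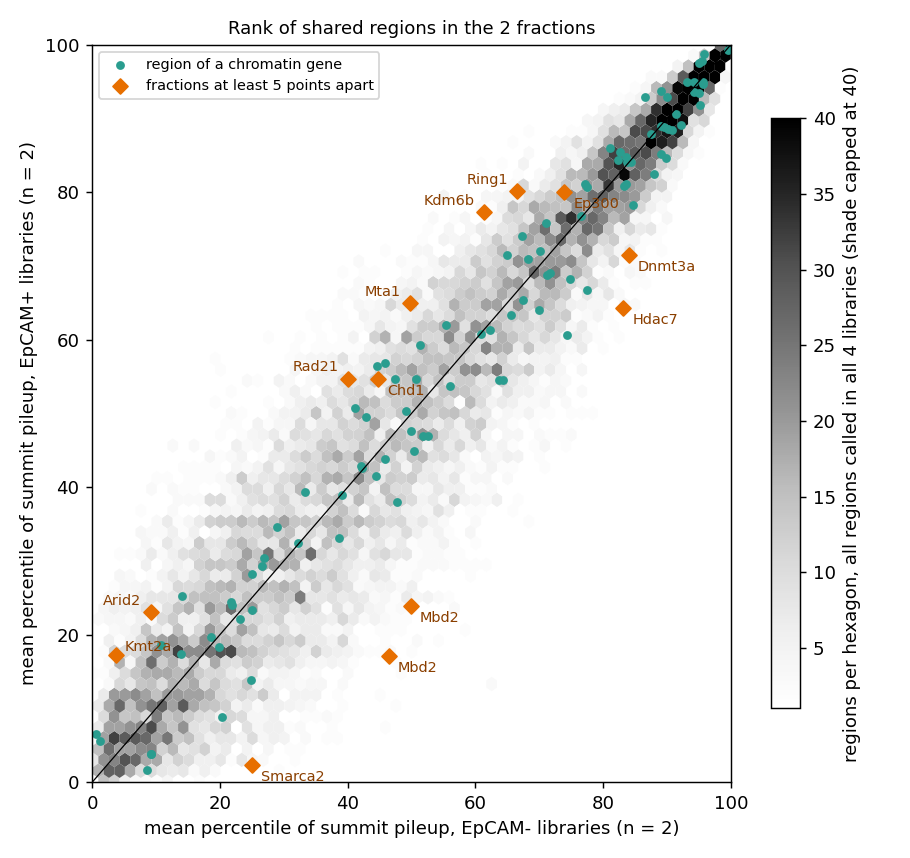
Mean percentile of summit pileup in the 2 EpCAM- libraries (horizontal axis) and in the 2 EpCAM+ libraries (vertical axis) for all regions called in all 4 libraries (grey hexagons, shade by number) and for the 109 regions of the chromatin genes (green). Orange diamonds are the 13 regions ranked apart, with the gene named; both Mbd2 regions and that of Smarca2 lie farthest below the diagonal.

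The other genes of the same pathways were close to the 45 in the share with a start region, but not in every count. Of 147 further genes of the 8 functional groups, 121 (82.3%) had a start region called in all 4 libraries, close to the 37 of 45 given above. The single groups did not all match. A start region was present at 11 of 17 further SWI/SNF genes, against 9 of 9 above. In the CHD/NuRD group it was 15 of 21, against 4 of 8. All 4 libraries called 268 (58.4%) of the 459 regions in their windows, 16 (3.49%) were EpCAM-positive-only, and 9 (1.96%) were found in the EpCAM- pair alone. Over all regions these 3 shares were 46.3%, 4.40% and 1.72%. Of the 268 shared regions, 26 were ranked higher in EpCAM+ and 23 higher in EpCAM-. The background was 9.30% and 9.79% of all shared regions, and the 45 genes had 8 and 5 of 109. At a start, EpCAM-positive-only regions lay at Baz2a, a bromodomain protein of the nucleolar remodelling complex, with 33 and 29 fragments 383 bp away, and at Ino80, the motor of the INO80 remodeller, with 33 and 24 fragments 737 bp away. None of the 9 EpCAM-negative-only regions of these genes was within 1 kb of a start.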

How the data were processed

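Peaks were called in each library separately, and the deposited data are 1 narrow peak list per library. Per the submitters' processing notes, the tools included MACS3, a peak caller (with Bowtie2, Trimmomatic, Trim Galore, FastQC, Picard, SAMtools, deepTools, bedtools), and the build was mm10 (GRCm38). For caller settings, duplicates and a shift for the transposase, nothing is stated: not given in the sources used here. Each list holds, as deposited by the authors, a display score, a fold enrichment at the summit over local background, and the −log10 of the p-value and q-value of each peak, all from the authors' peak caller and valid within that list.

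The deposited fold and −log10 p gave the pileup at each summit (in fragments) and the background, solved with a tolerance of 0.01 for 99.9885% to 99.9959% of peaks. The unit counted by the caller, fragments or reads, is not stated. Peaks on chromosomes 1 to 19, X and Y that overlapped by at least 1 bp were merged into regions. Library summaries were compared by exact permutation test; that test cannot go below p = 0.333 with 2 libraries against 2, so calls and ranks were counted. Added after the data had been seen, limma 3.58.1 (R 4.3.3, moderated with a mean trend) tested log2(pileup + 1) of the regions called in all 4 libraries, median-centred, p-values adjusted by Benjamini-Hochberg and called under 0.05. The procedures were tested on simulated data. Python 3.11.15, numpy 2.4.6, scipy 1.17.1, pandas 2.3.3 and matplotlib 3.10.9 were used.

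The members and all lists were chosen with earlier results of these data known. Named with values are members with a region in 1 fraction alone or no start region, the member with the most shared regions in each group, the 5 largest rank differences in each direction, and the 5 highest and 5 lowest start regions. The other members named were chosen after their values were seen. Strand, starts and promoter sequences came from RefSeq GRCm38.p6; exons, introns and UTRs were not annotated here.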

Additional observations from a re-analysis of the deposited data

How the results depend on the processing

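The number of genes with a start region called in all 4 libraries was 37 under each threshold on −log10 q, with lists of equal length, with an overlap of at least 50% of the shorter peak and without any 1 library, and 32 with a limit of 500 bp. The EpCAM-positive-only count of 9 of 189 moved to 5 of 133 with the gene span alone (3.76%, against 4.05% of regions in such windows of all protein-coding genes), 15 of 349 with 50 kb on each side (4.30% against 4.47%) and 5 of 182 with lists of equal length (2.75% against 3.30% of all regions). The EpCAM-negative-only count of 5 of 189 was 5 of 133 with the gene span alone (3.76% against 1.46%). It was 6 of 349 with 50 kb (1.72% against 1.59%) and 6 of 182 with lists of equal length (3.30% against 2.43%). Regions called in all 4 libraries rose in number from 109 to 192 with 50 kb. Without 1 library in turn, the counts ranged from 12 to 27 (EpCAM-positive-only), 7 to 11 (EpCAM-negative-only) and 111 to 116 (called in every library left), because fewer calls were needed. The difference in peaks per 1000, -0.0503, reversed to 0.207 with 50 kb and 0.0390 with lists of equal length, and ranged from -0.438 to 0.337 without 1 library. Of the shared regions, 1 was higher in EpCAM+ and 2 in EpCAM- with a limit of 10 percentile points. Those were 0.917% and 1.83%, against 4.09% and 4.76% of all shared regions. With 0 points they were 25 and 18 (22.9% and 16.5%, against 22.0% and 21.6%). Ranked by fold enrichment they were 7 and 9 (6.42% and 8.26%, against 10.4% and 11.3%). Without 1 library the ranges were 13 to 24 higher in EpCAM+ and 9 to 16 higher in EpCAM-. The 10 named rank differences kept their sign under each ranking and without any 1 library, although by fold those at Kdm6b (0.161) and Mta1 (0.579) were close to 0. With limma, the 0 and 0 calls higher in EpCAM+ and EpCAM- stayed 0 and 0 with quantile normalisation. Fits without 1 library leave a single library in a fraction, and their calls are not given. With the replicate number as a block, limma called 1 region (0.917%) higher in EpCAM+. It was the region at Crip2 in the Mta1 window, while the named region at Gm30599 was not called. In EpCAM-, 4 regions (3.67%) were called higher, at Hdac7, Smarca2, Mbd2 (the first region) and Dnmt3a. Of all 16758 regions, 258 and 542 were called with the block (1.54% and 3.23%) and 4 and 12 without it. The labels tie the numbers to no shared mouse or day, and deviations of same-numbered libraries correlated at 0.165 over regions. Whether same-numbered libraries were paired cannot be told from this. The limma values given further above are those without the block. Read depth is not known. The regions of 1 fraction alone held 8 to 24 fragments, where the median over all peaks of a list was 20, 19, 18 and 17.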
